A study of Mus musculus with 2 samples.

Results

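Immediate early genes are transcribed within minutes of a growth factor, stretch or stress signal, from factors already bound to their promoters and without new protein synthesis. Many of their products are transcription factors: FOS and JUN proteins dimerise through leucine zippers into AP-1, which binds DNA and drives later genes, and EGR1 is a zinc finger factor. Their RNAs are short-lived, and they also rise when tissue is cut or dissociated. In the lung they have been studied chiefly in injury, stretch and repair. The 10 genes described here are Fos, Fosb, Fosl2, Jun, Junb, Jund, Egr1, Ier2, Btg2 and Atf3, taken by name from the 43346 Ensembl genes of the deposited tables. All 10 were matched.

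The samples were 2 libraries of total RNA from lungs of B6NCrl mouse embryos at 15.5 days of gestation, described as healthy, with no treatment and no altered gene named. Replicate 1 pooled 78 embryos and replicate 2 pooled 62, with males and females mixed. The libraries form a single group, so the data give the level of each gene in this tissue and the spread between pools, and no condition can be compared. Each pool has 1 library, so the spread between pools takes in dissection, extraction and library preparation. In a bulk sample, fewer cells of a type and less RNA per cell cannot be told apart.

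Depth was 40395850 estimated reads in replicate 1 and 36601054 in replicate 2. The labelled tissue was checked on marker genes: all 7 lung epithelial markers, among them Nkx2-1, and all 6 lung mesenchymal markers were at 1 TPM (reads per transcript length, scaled to a common total) or above in each library. Detection alone does not single out lung, because hepatocyte and striated muscle markers passed it too. List medians in replicates 1 and 2 were 78.6 and 71 TPM for lung epithelial and 189 and 184 for lung mesenchymal markers. They were 4.82 and 23.3 for hepatocyte, 9.22 and 1.49 for thymocyte and 25.8 and 59.4 for striated muscle markers. The libraries stood apart in genes of neighbouring organs. The median log2 ratio of replicate 2 over replicate 1 was 2.35 for hepatocyte markers (7 of 7 at 1 TPM or more), -2.56 for thymocyte markers (5 of 7) and 1.49 for striated muscle markers (7 of 7), of which 4 were higher and 3 lower in replicate 2. The summed level of the 7 hepatocyte markers was 34.1 TPM in replicate 1 and 159 TPM in replicate 2, that of the 7 thymocyte markers 95.5 and 18.9 TPM, and that of the 7 striated muscle markers 404 and 474 TPM. No defining marker of these lists was at 0 in either library. The part of these cells in the levels given here was not tested.

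The promoters come first, because these genes are regulated largely at transcription. RefSeq start sites on GRCm38.p6 were matched for 8 of the 10 genes. Stretches of 200 bases that end just before the start site are shown for the 6 of them that hold at least 1 of the marked motifs in the 250 bases before to 50 after the start; Fosl2 and Jund hold none of these. Capitals mark cyclic AMP response element letters (TGACNTCA, or the core TGACG), the TATA box letters TATAAA and the NF-Y letters CCAAT, on either strand. On GRCm38.p6 the stretches lie at chr4:95052223-95052422 (minus strand), chr1:134079156-134079355 (minus), chr8:84978749-84978948 (minus), chr12:85473690-85473889 (plus), chr1:191183334-191183533 (minus) and chr7:19310046-19310245 (minus).
Jun: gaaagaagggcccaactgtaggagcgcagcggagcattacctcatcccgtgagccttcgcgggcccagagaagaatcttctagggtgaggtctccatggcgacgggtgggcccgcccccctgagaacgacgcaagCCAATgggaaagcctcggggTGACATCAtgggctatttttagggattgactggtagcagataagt
Btg2: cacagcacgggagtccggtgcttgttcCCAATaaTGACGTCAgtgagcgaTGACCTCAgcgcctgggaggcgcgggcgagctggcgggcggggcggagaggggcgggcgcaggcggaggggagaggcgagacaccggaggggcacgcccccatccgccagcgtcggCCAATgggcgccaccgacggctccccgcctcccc
Junb: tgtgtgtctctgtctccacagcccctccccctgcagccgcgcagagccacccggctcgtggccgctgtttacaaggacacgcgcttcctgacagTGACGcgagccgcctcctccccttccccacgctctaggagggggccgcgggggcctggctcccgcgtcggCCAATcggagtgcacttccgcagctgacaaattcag
Fos: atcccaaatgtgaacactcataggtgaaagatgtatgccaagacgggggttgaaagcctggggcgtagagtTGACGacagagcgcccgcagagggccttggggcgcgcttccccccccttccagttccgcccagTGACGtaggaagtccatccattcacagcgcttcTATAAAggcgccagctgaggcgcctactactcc
Atf3: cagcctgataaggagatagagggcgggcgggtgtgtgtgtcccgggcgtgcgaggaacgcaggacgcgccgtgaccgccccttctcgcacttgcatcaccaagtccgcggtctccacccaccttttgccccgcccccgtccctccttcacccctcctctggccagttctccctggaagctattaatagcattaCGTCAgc
Fosb: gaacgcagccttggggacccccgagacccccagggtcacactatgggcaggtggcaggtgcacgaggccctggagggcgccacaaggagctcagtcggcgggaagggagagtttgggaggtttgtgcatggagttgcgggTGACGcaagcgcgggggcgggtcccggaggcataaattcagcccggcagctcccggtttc

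Cyclic AMP response element letters recurred in these windows, most of which are rich in CpG, a pair of bases that TGACG contains. The core TGACG lay within 250 bases before to 50 after the start in 5 of the 8 genes (Atf3, Btg2, Fos, Fosb and Junb), against 20.8% of the 32851 RefSeq promoters of the same length. In Fos it began 66 and 129 bases upstream of the start, in Fosb 60 bases and in Junb 106 bases. Btg2 held the full palindrome TGACGTCA 166 bases upstream, a sequence found in 1.79% of all promoters. The looser TGACNTCA, which includes that palindrome, was found in Btg2 and Jun (2 of 8, against 8.83%). The Jun match, TGACATCA, began 45 bases upstream, and Btg2 had another TGACNTCA match 150 bases upstream.

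Other promoter letters were less uniform. TATAAA was found in Fos, 33 bases upstream, and in Junb, where it occupied the first 6 bases after the RefSeq start (2 of 8, against 13.6% of promoters). The GENCODE M21 start of Junb lies 30 bases further downstream. CCAAT was found in Atf3, Btg2, Jun and Junb (4 of 8, against 37.4%), and GGGCGG in 6 of 8 (against 35.7%). The EGR-type GCGNGGGCG, which can overlap the preceding motif, was found in Btg2, Fosb and Fosl2 (3 of 8, against 5.55%). The 7-base AP-1 letters TGANTCA were in 0 of 8 windows (against 7.81%). Matches of 8 bases, such as TGACATCA in Jun, were counted under TGACNTCA and not here. The CArG box, the name of the serum response factor motif, was in 0 of 8 (against 1.63%). Elements farther than 250 bases upstream were not searched. The Atf3 window belongs to a start site well inside the gene as M21 draws it, and the Fosl2 window also lies inside its M21 gene. The Jund window holds none of these motifs; its RefSeq start lies 1210 bases upstream of the GENCODE M21 start. GC content was 58.7% to 72% in 7 of the windows and 46.7% in Jund, beside a median of 52.7% over all promoters. A match is a string of letters and no measure of binding.

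The genes were compact in their leading transcripts. Jun, Junb, Jund and Ier2 have a single exon, and all 10 have 4 exons or fewer, as do 22.7% of the 13031 detected coding genes with a complete model. Single-exon models make up 2.85% of those genes. The median genomic span of the leading transcript was 3567 bases, against 21421, while the median RNA length of 2426 bases was near the 2790 of all detected coding genes. Fosl2 had the longest leading transcript, with a span of 22042 bases and an RNA of 6537. The next longest span was that of Atf3, at 13045 bases. The whole Atf3 gene of M21 is longer than this transcript (chromosome 1, 191170296 to 191218039).

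AU-rich letters, which mark RNAs for rapid decay when ZFP36 proteins bind them, were searched in the 3′ UTRs of the leading transcripts. TATTTAT occurred in 7 of 10 (Atf3, Btg2, Fos, Fosb, Fosl2, Jun and Jund) and in 26.8% of detected coding genes, whose UTRs vary in length. UTRs of the 10 genes were longer at the median (1187 bases against 890), so windows of equal length were also searched. In the last 500 bases it was found in 4 of the 9 UTRs that are long enough, against 16% of detected genes. In the first 500 bases it was found in 2 of 9, against 11.7%. The core pentamer ATTTA, which the longer motif contains, was in the last 500 bases of 6 of 9 (against 58.6%) and in the first 500 of 3 of 9 (against 48.1%), so the core was not more frequent in the first window. Sites of 30 bases are shown for the highest 2 genes, Jun and Btg2, for Fos, and for the lowest, Fosb, the capitals marking the 7-base motif. On GRCm38 the genes lie on chromosomes 4, 1, 12 and 7, and positions count from the first base after the stop codon. The sites span bases 1160 to 1189 in Jun, 92 to 121 in Btg2, 645 to 674 in Fos and 1487 to 1516 in Fosb.
Jun: ttgcttgtgcaTATTTATaatagcgttcgt
Btg2: aaatgaagagcTATTTATacatgttttttt
Fos: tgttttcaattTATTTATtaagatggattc
Fosb: ccacccccagcTATTTATccctttcctggt

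The 10 genes differed widely in level. Of all detected genes, 12.2% lay below Fosl2, the lowest detected of the 10, and 88.9% below Jun. Jun, Btg2 and Ier2 were abundant, Jund, Junb and Egr1 intermediate, Fos, Atf3 and Fosl2 low, and Fosb was near the limit of counting. Detection was set at 1 TPM in each library, which 9 of the 10 passed and Fosb did not. The median of the 10 was 13.1 TPM in replicate 1 and 11.4 in replicate 2. Levels are given as deposited TPM, with the deposited interval for a library, which covers counting and read assignment, lies around the posterior mean rather than the printed TPM, and has a level that the files do not state.

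**Figure D1:**
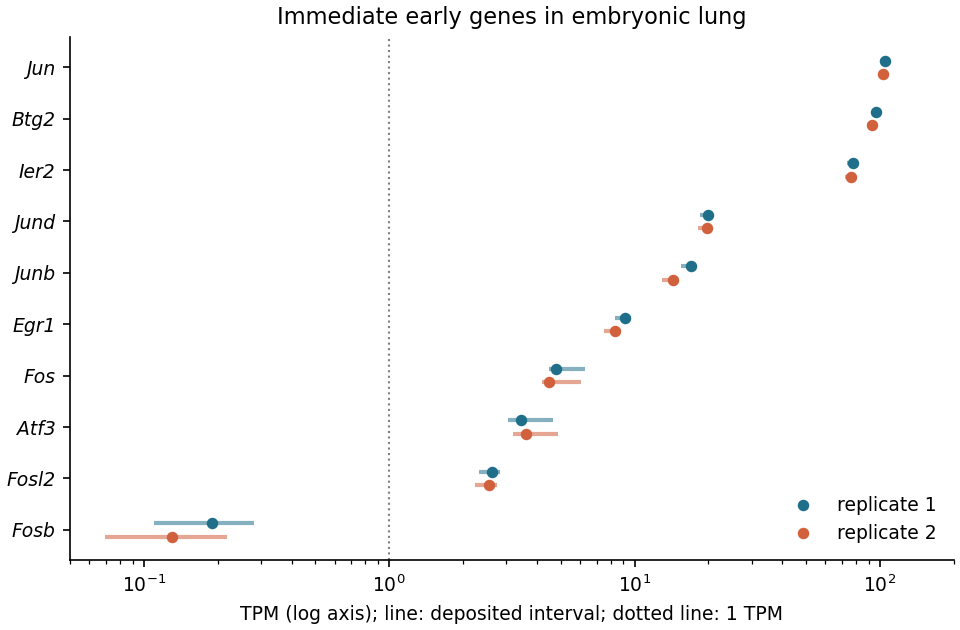
TPM of the 10 immediate early genes on a log axis, with 1 point per library and the deposited interval as a line. Jun, Btg2 and Ier2 lie between 76.5 and 105 TPM in both libraries, and Fosb lies left of the dotted line at 1 TPM.

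Among the JUN genes, which encode the AP-1 subunits able to pair with themselves or with FOS proteins, Jun dominated. Jun (ENSMUSG00000052684.4; GRCm38 chromosome 4, 95049034 to 95052222) stood at 104.61 TPM in replicate 1 (interval 100.2 to 104.6) and 103.28 in replicate 2 (98.7 to 103), a mean of 104 ± 0.94 (SD, n = 2). It rested on 8553 and 7851 estimated reads. Jund (chromosome 8, 70698949 to 70700616), often the most steadily expressed JUN gene, stood at 19.94 and 19.65 TPM. Junb (chromosome 8, 84974484 to 84978718), a weaker activator that can oppose JUN, stood at 17.02 and 14.41 TPM. Jun exceeded Junb 6.66 ± 0.722-fold and, with the deposited values, Jund 5.25 ± 0.00689-fold, with separate intervals in both libraries. With another length of the Jund model and all its reads kept, described next, the latter fold was 2.96 ± 0.00389. The SDs of these folds describe 2 libraries and leave out the counting error, which for Jund was 2.61% in replicate 1 and 2.73% in replicate 2.

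The Jund value depends on the gene model. The model used for counting (GENCODE M4) has 2878 bases and that of M21 has 1668, with which the same reads would give 35.1 ± 0.363 TPM. Any reads that lie outside the shorter model were kept in this value, so the level under M21 could be lower. The antisense gene Gm11175 lies inside Jund (70699162 to 70700080, minus strand) and was listed at 34.01 and 35.11 TPM from 400 and 384 reads. The posterior SD of the read number was 15.7 in replicate 1 and 15.4 in replicate 2, the same for both genes, so some reads were divided between them. With all reads of Gm11175 given to Jund, its level would be 25.4 and 25.3 TPM. Whether strand was used in counting is not stated. With any of these values Jund stayed below Ier2 and Jun and above Junb. Jun shares a few reads with its antisense gene Junos (95051534 to 95167318), which held 37.5 and 37.8 reads. Junb overlaps the end of the abundant Prdx2 (chromosome 8, 84969587 to 84974834, opposite strand). For Junb and the other 7 genes the posterior SD of the read number was 0.

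The FOS genes, whose products bind DNA only as partners of JUN or related proteins, were far lower. Fos (ENSMUSG00000021250.9; chromosome 12, 85473890 to 85477273) stood at 4.78 TPM (4.47 to 6.27) and 4.49 TPM (4.2 to 6.04), from 254 and 222 reads. Fosl2 (chromosome 5, 32135801 to 32157842), which encodes FRA-2, stood at 2.63 and 2.55 TPM. Fosb (chromosome 7, 19302696 to 19310051) stood at 0.19 TPM (0.11 to 0.28) and 0.13 TPM (0.0693 to 0.219), from 18 and 12 reads. Fosl1, the remaining FOS gene and not among the 10, stood at 0.31 and 0.38 TPM. Fos exceeded Fosl2 1.79 ± 0.0401-fold, and the FOS genes kept the order Fos, Fosl2 and Fosb in both libraries.

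Summed over each family, the 3 JUN genes reached 139 ± 2.99 TPM and the 4 FOS genes 7.73 ± 0.255 TPM. JUN RNA thus exceeded FOS RNA 17.9-fold in replicate 1 and 18.2-fold in replicate 2. Jun made up 73.9% and 75.2% of the JUN sum, and Fos made up 60.4% and 59.5% of the FOS sum. These sums, folds and shares rest on the deposited values. The higher Jund level under the M21 length would raise the JUN sum and lower the share of Jun. Jun alone exceeded Fos 22.4 ± 0.79-fold.

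**Figure D2:**
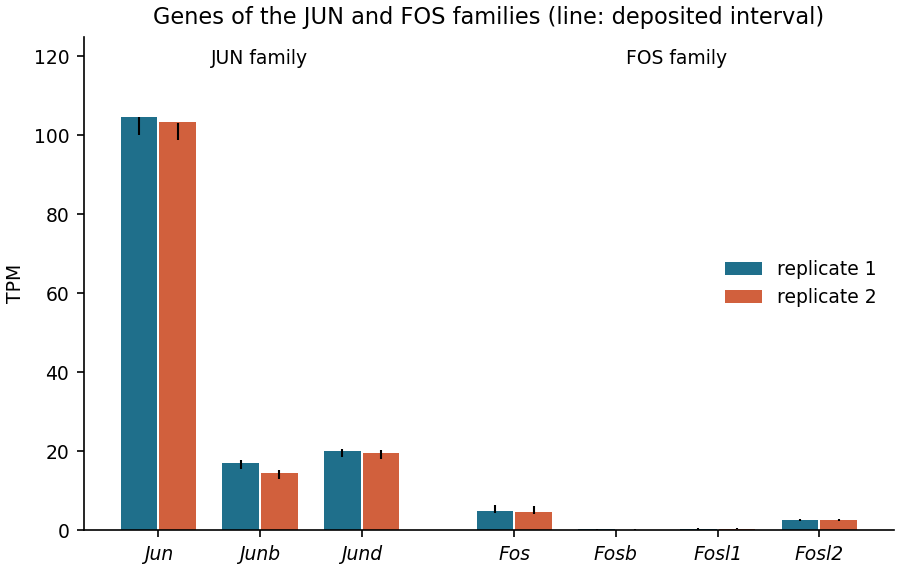
TPM of the 3 JUN genes and the 4 FOS genes on a linear axis from 0, with 1 bar per library and the deposited interval as a line. The Jun bars reach 105 and 103 TPM, whereas the highest FOS bars, those of Fos, reach 4.78 and 4.49 TPM.

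The other members had separate roles and levels. Btg2 (ENSMUSG00000020423.6; chromosome 1, 134075170 to 134079120), an antiproliferative gene whose product recruits the CCR4-NOT deadenylase, stood at 96.80 TPM (92.5 to 97) and 93.16 TPM (88.6 to 93.2). It was the highest of the 6 BTG and TOB genes and held 42.1% and 41.1% of their sum. Ier2 (chromosome 8, 84661331 to 84662852), a small nuclear protein gene, stood at 77.77 and 76.47 TPM and held 77.4% and 73.8% of the sum of 4 IER genes. Egr1 (chromosome 18, 34859823 to 34864984) stood at 9.18 and 8.35 TPM, with 91.5% and 92.4% of the EGR family sum. Atf3 (chromosome 1, 191170296 to 191218039), a stress-induced factor of the CREB and ATF branch that can repress, stood at 3.45 and 3.6 TPM. In these 4 genes as in the others, the libraries lay close together beside the distance between genes.

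In order of mean level the genes ran Jun, Btg2, Ier2, Jund, Junb, Egr1, Fos, Atf3, Fosl2 and Fosb, the same in both libraries. In 8 of the 9 pairs of neighbours the deposited intervals were separate in both libraries. The exception was Fos and Atf3, whose intervals overlapped in both libraries, so their order is not resolved. The narrowest separate step was from Jun to Btg2, at 1.09 ± 0.0198-fold. The widest was from Fosl2 to Fosb, at 16.7 ± 4.08-fold. Of all 45 pairs, 44 were separate in both libraries.

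Transcript models added little division. In the annotation used for counting, 7 of the 10 genes have 1 transcript, so forms such as the truncated FOSB product were not resolved here. Fos has 4 transcripts, of which ENSMUST00000021674.6 held 100% of the gene in both libraries, and the 3 noncoding ones had 0 reads. Atf3 has 3, and ENSMUST00000027941.9 held 100%. In the posterior means, which spread uncertain reads more evenly, the leading shares fell to 83.8% and 82.4% for Fos and to 74.8% and 75.6% for Atf3. Egr1 was divided between ENSMUST00000165033.1, with 93.5% and 92.6%, and the longer ENSMUST00000064795.5, with 6.51% and 7.41% from 69.3 and 66.7 reads.

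The libraries were then compared gene by gene, which measures how far 2 pools of lungs differ. After scaling by TMM (a trimmed mean over genes that sets library sizes), which raised replicate 2 by 0.07 on the log2 scale, the median of the 10 log2 ratios (replicate 2 over replicate 1) was 0.02. The median over the 11261 genes averaging at least 5 TPM was 0.01, with an SD of 0.20. Of the 10 ratios 6 were above 0 and 4 below. The highest were Atf3 at 0.13, Jun and Jund at 0.05 and Ier2 at 0.05. The lowest were Fosb at -0.48, from 18 and 12 reads, Junb at -0.17 and Egr1 at -0.07. Fosl2 stood at 0.03, Btg2 at 0.02 and Fos at -0.02.

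Scaled intervals overlapped for all 10 genes. Separate intervals were found in 0 of the 6 members averaging at least 5 TPM, where the background was 13.5% of genes (9.21% higher and 4.32% lower in replicate 2), and in 0 of the 9 detected members, where it was 11.6% (7.37% higher and 4.27% lower). A difference of 2-fold or more with separate intervals, found in 0.355% of genes averaging at least 5 TPM and in 0.555% of detected genes, was found in 0 of the 6 and 0 of the 9. Signs depend on the scaling: without it 1 ratio (Atf3) was above 0 and 9 below, and scaling to the spike-in reads put all 10 below 0, with a median of -0.16 beside -0.17 over all genes averaging at least 5 TPM. Without scaling, Junb alone of the 10 had separate intervals, as did 17.4% of genes averaging at least 5 TPM. The Junb intervals were then 15.5 to 17.8 TPM in replicate 1 and 13 to 15.2 in replicate 2. They overlapped after TMM scaling (13.6 to 16 in replicate 2).

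The spread of the 10 genes can be set beside that of genes at like level. The SD of the log2 ratio was 0.40 over genes of 1 to 5 TPM, 0.27 over genes of 5 to 20 TPM and 0.14 over genes of 20 to 200 TPM. The ratio lay more than 0.25 from 0 (log2) in 41.1%, 15% and 3.71% of these genes, respectively, and in 1 of the 10, Fosb, whose mean of 0.16 TPM is under these ranges. These values describe 2 libraries.

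**Figure D3:**
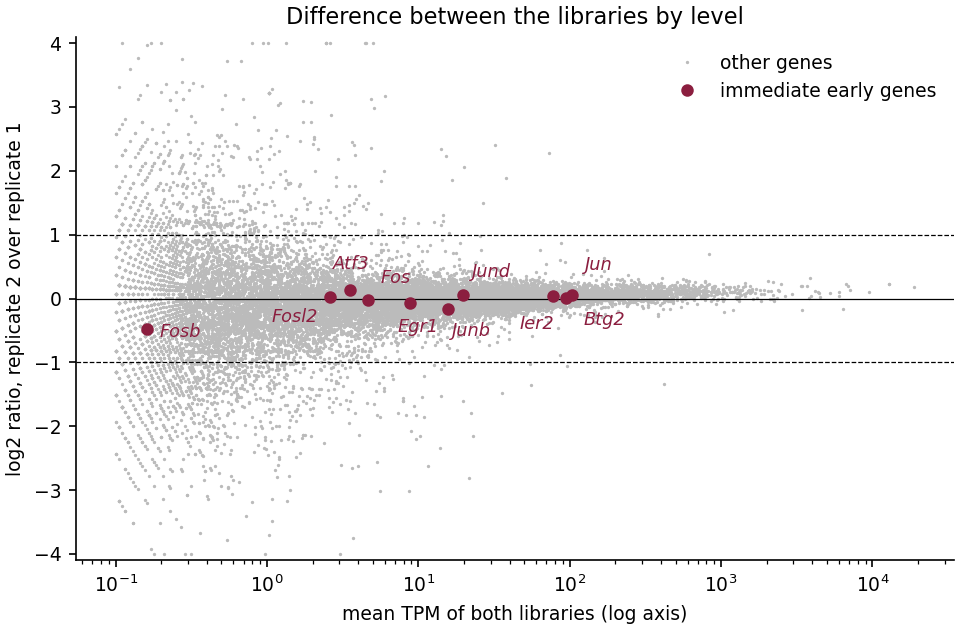
Log2 ratio of replicate 2 over replicate 1 after TMM scaling against the mean TPM (log axis), for genes averaging at least 0.1 TPM; points beyond 4 are drawn at 4, and dashed lines mark a 2-fold difference. The immediate early genes lie within the cloud of other genes, from -0.48 for Fosb to 0.13 for Atf3.

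The rest of the immediate early response was described with 2 further lists. Of 15 other transcription factor genes 9 were detected (list median 4.24 TPM), and 0 of the 7 averaging at least 5 TPM had separate intervals. The growth regulator Myc led at 65.46 and 64.05 TPM, then the Krüppel-like factors Klf10 at 39.77 and 39.03 and Klf6 at 32.99 and 30.98. The nuclear receptor gene Nr4a2 was the lowest detected, at 4.39 and 3.64 TPM. Egr2, Egr3, Fosl1, Npas4 and Nr4a3 lay between 0.05 and 0.48 TPM. Egr4 had 0 reads, and a count of 0 allows a level of up to 0.0556 TPM in replicate 1 and 0.0598 TPM in replicate 2. Of 24 genes that are not transcription factors 23 were detected (list median 17.5 TPM). Zfp36l1, an AU-rich RNA decay factor, led at 116.84 and 122.64 TPM, followed by Phlda1 at 96.85 and 98.83 and the ERK phosphatase gene Dusp6 at 59.59 and 58.58. Arc, known from neurons, was lowest of those detected at 1.21 and 1.13. In this list 4 of 21 genes averaging at least 5 TPM had separate intervals, 3 higher and 1 lower in replicate 2, beside 13.5% over all genes at that level.

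Partners and targets of AP-1 were mostly present. Of 14 partner genes outside the 10, 11 were detected (list median 8.9 TPM). Atf4, a translation-controlled stress factor, stood at 103.82 and 100.51 TPM, close to Jun, whose intervals overlapped those of Atf4 in both libraries, so their order is not resolved. Nfe2l2, which encodes the oxidative stress factor NRF2, stood at 83.71 and 77.85, and Atf2, a JUN partner, at 57.14 and 52. Of 15 target and late response genes 10 were detected (list median 13.9 TPM). The matrix protease gene Mmp2 led at 175.2 and 173.35 TPM, then Odc1, of polyamine synthesis, at 135.59 and 146.9 and the cyclin gene Ccnd1 at 111.73 and 104.56. Spp1 was the lowest detected, at 3.14 and 4.34. Of the 8 target genes averaging at least 5 TPM 3 had separate intervals, beside 13.5% of all genes at that level. After TMM scaling Mmp2 and Odc1 were higher in replicate 2 (log2 ratios of 0.06 and 0.19). The deposited TPM of Mmp2 was lower in replicate 2, so its sign depends on the scaling. The third gene with separate intervals, Gclc, was lower in replicate 2 at -0.26.

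Nearly all of the upstream machinery was detected. All 13 genes for factors at serum and cyclic AMP response elements were detected (list median 20.2 TPM), led by Atf1 at 46.06 and 42.35, Elk3 at 34.36 and 32.43 and Creb1 at 30.25 and 28.88. Srf, the serum response factor gene, was lowest at 4.63 and 4.97. Of 16 kinase genes 15 were detected (list median 34.1 TPM), among them Map2k2 at 150.75 and 148.84 and the ERK gene Mapk3 at 109.75 and 108.49. Rps6ka5, an MSK kinase that phosphorylates CREB and histone H3, was lowest of those detected at 3.55 and 3.33. In neither of these lists did a gene averaging at least 5 TPM have separate intervals (0 of 12 and 0 of 14).

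All 12 corepressor and turnover genes were detected (list median 41.6 TPM). Cop1, a ubiquitin ligase gene for JUN, stood at 81.46 and 81.91 TPM, and the deadenylase genes Cnot7 and Cnot8 at 84.03 and 78.36 and at 81.27 and 75.21. Fbxw7, which also targets JUN, was lowest at 7.92 and 7.29. After TMM scaling 2 of these 12 genes had separate intervals, beside 13.5% over all genes averaging at least 5 TPM. Elavl1 was higher and Itch lower in replicate 2. The deposited TPM of Elavl1 was 77.39 and 76.94, so its sign depends on the scaling. Of 14 stress and heat shock genes 13 were detected (list median 88 TPM). The constitutive chaperone gene Hspa8 stood at 2227.61 and 2109.64 TPM, Hsp90ab1 at 1303.76 and 1327.97 and Hsp90aa1 at 683.5 and 738.51. The inducible Hspa1a was lowest of those detected at 2.86 and 3.19, and its near copy Hspa1b was listed at 0.22 and 0.12, so the split between them is uncertain. After TMM scaling, 6 of the 11 genes of this list averaging at least 5 TPM had separate intervals. Of them 5 were higher in replicate 2, and 0 were called apart. Over all genes at that level, 13.5% had separate intervals, and 9.21% had them with the higher value in replicate 2. Intervals narrow as reads rise: those of Hsp90ab1, from 71358 and 65978 reads, were separate at a log2 ratio of 0.10. The shares over all genes, here and for the other lists, were not matched for read number.

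**Figure D4:**
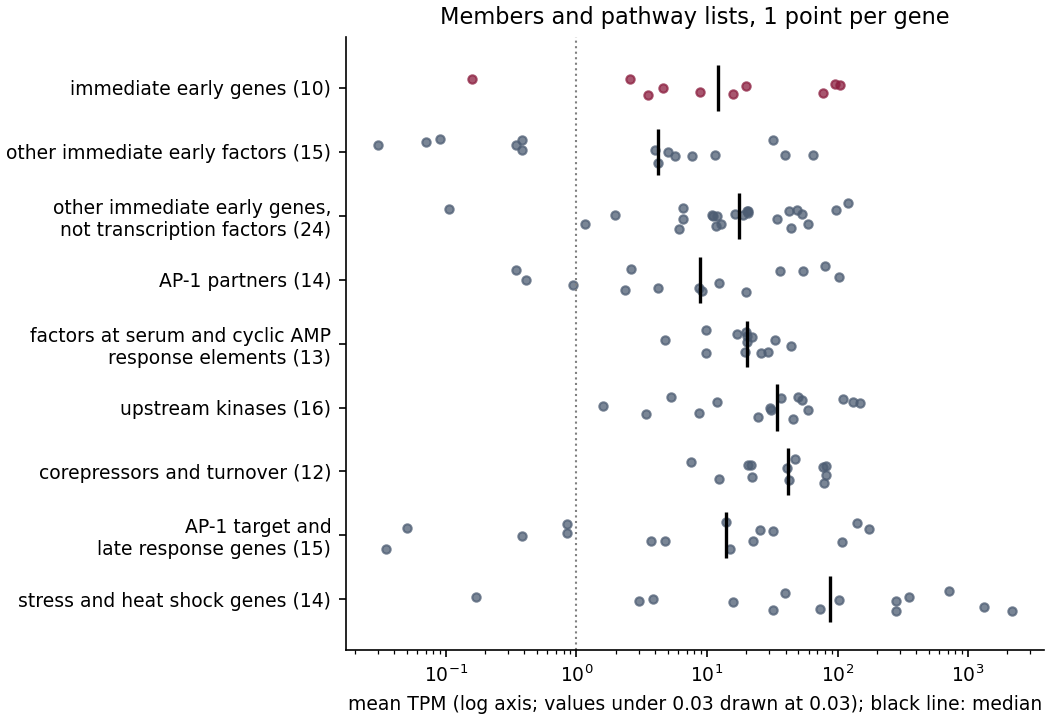
Mean TPM of each gene (log axis) in the 10 immediate early genes and 8 pathway lists, with 1 point per gene, the median as a black line and the number of genes in parentheses; the dotted line marks 1 TPM. The 10 genes spread from under 1 TPM to 104 TPM around a median of 12.2, and the stress and heat shock list has the highest median at 88 TPM.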

How the data were processed

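Per the labels, mirVana extraction was used, RNA over 200 nt was kept, 10 ng entered each library and spike-ins were added. For each library the authors deposited a gene and a transcript table with expected counts, TPM, FPKM, posterior means, TPM intervals and the percent of a gene's TPM held by each transcript. Per the file headers, the values are expected counts (estimated reads), TPM and FPKM; the deposited TPM of a library sums to its fixed total only over all features, spike-ins included. The deposited text names mm10 and GENCODE M4; the counting program, its version and its use of strand are not stated there. Symbols and models came from GENCODE M21 (GRCm38), promoters from RefSeq (GRCm38.p6).

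Expected counts were rounded for TMM (edgeR 4.0.16) and DESeq2 1.42.0 in R 4.3.3. A gene was called apart at a mean of 5 TPM or more, a 2-fold difference and separate deposited intervals after scaling. No test between conditions exists with 1 group. The members and lists were chosen with earlier results of these data known. All 10 members are named. From each list the 3 highest genes, the lowest detected and any called apart are named, except some that are not reported here; Fosl1, Egr2, Egr3, Egr4, Npas4, Nr4a3, Gclc, Elavl1, Itch, Jdp2, Hspa1b, Gm11175, Junos, Prdx2, the bZIP genes and the family sums were added after their values were seen. Promoter and AU-rich motifs were also chosen then. Intervals and floors (3 reads) cover counting and read assignment only, because PCR copies of a molecule were not told apart. Alternatives covered scaling, unit, minimum level, fold, single libraries and model length.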

Additional observations from a re-analysis of the deposited data

How the results depend on the processing

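The median log2 ratio of the 10 genes was 0.02 after TMM scaling and 0.03 with DESeq2 size factors. It was 0.02 with FPKM, with posterior mean TPM and with log2(TPM + 1), -0.05 without scaling and -0.16 with spike-in scaling. Spike-in scaling moved the median of all genes averaging at least 5 TPM from 0.01 to -0.17. The number of the 10 genes with separate intervals was 0 with TMM and with DESeq2 size factors and 1 (Junb) without scaling. An exact binomial test of the rounded reads compares these 2 libraries and no condition. After Benjamini-Hochberg adjustment it called 0 of the 10. Among the 6 members averaging at least 5 TPM it thus called 0, beside 21.2% of all genes at that level. At an unadjusted p under 0.05 it called 2 of the 10, Jun (adjusted p = 0.0905) and Junb (adjusted p = 0.126). The share of all genes at that unadjusted threshold was not counted, so these 2 cannot be set against a background. The number of all genes called apart was 40, and 157 with a minimum mean of 1 TPM, 320 with no minimum, 81 at a fold of 1.5, 62 with the exact binomial test in place of the intervals and 41 with DESeq2 size factors; none of the 10 was among them in any of these settings. Taking replicate 1 or replicate 2 alone, the median level of the 10 genes ranged from 11.4 to 13.1 TPM and the leading share of Egr1 from 92.6% to 93.5%. With posterior means the leading share was 83.1% for Fos and 75.2% for Atf3. The model length of GENCODE M21, chosen after seeing the data and applied with read numbers unchanged, moved Jund from 19.8 to 35.1 TPM and Fosl2 from 2.59 to 2.32. Adding the reads of Gm11175, also chosen then, moved Jund to 25.3. Depth limits Fosb most, with 18 and 12 reads. No paired analysis was possible because the libraries form a single group.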

Other observations

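Jun can also be placed among all genes of its protein class, in a list chosen after its level was known. Of 53 genes of the basic leucine zipper (bZIP) class 45 were detected, and the median of all 53 was 8.7 TPM. Xbp1, the factor of the unfolded protein response, led at 185 ± 12.4 TPM (SD, n = 2), followed by Jun at 104 ± 0.94 and Atf4 at 102 ± 2.34, whose intervals overlapped so that their order is not resolved, and by Nfe2l2 at 80.8 ± 4.14. With the deposited values Jund ranked 19 and Junb 23 in this list, and the rank of Jund depends on its gene model. In the same list Cebpb stood at 54.5 ± 4.27 and Cebpd at 38.2 ± 0.354.

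Outside the 10 genes, the AP-1 partner gene Jdp2, whose product pairs with JUN and represses, had separate intervals between the libraries. It stood at 1.34 and 0.55 TPM, from 54 and 20 reads, lower in replicate 2 and with a mean under 5 TPM.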
